A study of Homo sapiens with 4 samples.

Results

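Replication-dependent histone genes supply the bulk of the histones that package newly copied DNA. The set was taken by symbol from the NCBI RefSeq gene table (GRCh38.p14): protein-coding genes named H2AC, H2BC, H3C or H4C with a number, or H1 with a number after a hyphen. The rule found 73 of 19970 protein-coding genes on chromosomes 1 to 22 and X. There were 10 genes of the linker histone H1, 17 of H2A, 18 of H2B, 13 of H3 and 15 of H4. Chromosome 6 held 55 of them, in a block of 34 at chr6:25726063-26285534, a block of 5 at chr6:27132316-27147562 and a block of 16 at chr6:27807479-27893891. Chromosome 1 held 13, with 11 at chr1:149782689-149887965 (cytogenetic band 1q21) and H2AC25 with H2BC26 at chr1:228457364-228458558 (1q42). The other 5 lay elsewhere, among them H1-10 and H1-8 on chromosome 3 and H4C16 and H1-7 on chromosome 12. The symbol rule also takes in H1-10, which is known as a replication-independent linker histone, and H1-6, H1-7, H2AC1, H2BC1 and the oocyte linker histone H1-8, known from germ cells.

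The measurements were chromatin immunoprecipitation sequencing (ChIP-seq) of MHCC97L, an established human hepatocellular carcinoma line labelled wild type, left untreated and grown with 10% serum at 37 °C under 5% CO2. Trimethylation of histone H3 at lysine 4 (H3K4me3, a mark of active promoters), acetylation at lysine 27 (H3K27ac, of active promoters and enhancers) and monomethylation at lysine 4 (H3K4me1, of enhancers and promoter flanks) each had 1 library. An input library was not analysed here. For each mark the authors deposited peak summits, 1 bp wide, each with a score on a −log10 scale, so a score ranks summits within its own list and is not a signal level. With 1 library per mark there is no replicate error and no test between groups, and the 95% Wilson intervals below cover counting error over genes only. All groups below are groups of genes in the same cells, and genes are not replicates. The lists do not give the share of cells in each cell cycle phase.

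In dividing cells these genes are transcribed mainly in S phase, when the cyclin E and CDK2 kinase acts on the coactivator NPAT at nuclear sites called histone locus bodies. Most have no introns, and their mRNAs end in a stem-loop bound by SLBP in place of a poly(A) tail. H2A, H2B, H3 and H4 build the nucleosome core, and H1 binds the linker DNA between cores.

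The lists held 46078 H3K4me3, 70028 H3K27ac and 86366 H3K4me1 summits on the chromosomes analysed, with median scores of 8.23, 8.40 and 4.58 over those summits. As a check of the cell label, 5 of 11 hepatocyte lineage genes had H3K4me3 and H3K27ac at the same end of the gene (45.5%), where 47.4% of all protein-coding genes did, so this count does not set them apart. Among the 5 were the keratin genes KRT8 and KRT18, which share a summit (H3K4me3 107.3), the transferrin gene TF (85.8) and the liver transcription factor HNF4A (71.9). H3K4me3 was missing at ALB, APOA2, TTR, SERPINA1 and FOXA2, and the first 3, which code for liver secretory proteins, had no summit of any mark. Both marks together were at 0 of 3 lymphocyte, 0 of 3 endothelial and 0 of 3 fibroblast genes, and at 1 of 3 myeloid genes, CD68. Genes with no summit of any mark were 2 of 3 lymphocyte, 0 of 3 myeloid, 1 of 3 endothelial and 3 of 3 fibroblast. H3K27ac without H3K4me3 was at PECAM1 (endothelial, 43.9) and CSF1R (myeloid, 16.7). H3K4me3 without H3K27ac was at KDR (endothelial, 22.8), CD14 (myeloid, 7.26) and CD3E (lymphocyte, 6.59). The files give no read depth.

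The upstream DNA of the H4 genes is shown first, because H4 genes both with and without the marks carry the same short element. RefSeq (GRCh38.p14) gave a start site and promoter for 67 of the 73 members, and H4C1, H4C3, H2AC12, H3C11 and H3C12 were among those it did not hold. The sequences are the 200 bases before the start, 5′ to 3′ on the gene's strand. Capitals mark exact matches, on either strand, to the end of the H4 subtype element (searched as GGTCCG), to the core promoter element that binds the TATA-binding protein (searched as TATAAA) and to the box bound by the factor NF-Y (searched as CCAAT). H4C15 lies at 1q21 (chr1:149861160-149861359, minus strand) and had the highest H3K27ac score of all members. H4C12 (chr6:27831561-27831760, minus strand) had the highest H3K4me3 score of the chromosome 6 H4 genes. H4C6 (chr6:26240193-26240392, plus strand) and H4C7 (chr6:26246997-26247196, minus strand), which codes for a divergent H4, had no summit of any mark.
H4C15: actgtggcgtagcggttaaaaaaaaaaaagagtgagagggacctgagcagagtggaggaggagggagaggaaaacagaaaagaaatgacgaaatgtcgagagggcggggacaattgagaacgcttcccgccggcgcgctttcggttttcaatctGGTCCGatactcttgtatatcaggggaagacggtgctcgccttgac
H4C12: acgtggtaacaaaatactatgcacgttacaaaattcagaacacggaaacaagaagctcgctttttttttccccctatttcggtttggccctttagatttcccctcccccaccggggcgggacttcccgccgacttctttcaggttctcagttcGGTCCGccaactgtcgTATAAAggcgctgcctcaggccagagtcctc
H4C6: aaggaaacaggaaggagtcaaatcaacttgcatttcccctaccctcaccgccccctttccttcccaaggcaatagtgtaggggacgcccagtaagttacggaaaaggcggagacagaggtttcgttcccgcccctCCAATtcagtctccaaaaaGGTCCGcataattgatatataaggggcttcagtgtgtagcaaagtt
H4C7: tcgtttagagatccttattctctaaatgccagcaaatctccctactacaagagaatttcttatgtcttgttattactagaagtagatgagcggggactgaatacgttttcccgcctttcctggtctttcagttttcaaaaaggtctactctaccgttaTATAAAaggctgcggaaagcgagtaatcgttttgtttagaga

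GGTCCG lay 44 to 47 bases upstream of the start in 12 of the 13 H4 promoters in the table. H4C7 was the exception, and H4C6, which had no mark, carried it. The element was in 23.9% of the 67 member promoters against 9.43% of all 35116 promoters, each read over the 250 bases upstream of the start and on both strands. Its first bases can overlap the NF-Y box read on the opposite strand. That box was in 16 of 16 H2A, 18 of 18 H2B and 11 of 11 H3 promoters, but in 3 of 13 H4 promoters, and in 32.0% of all promoters. AAACACA, the H1 box, was in 7 of 9 H1 promoters, against 4.82% of all promoters. A match is a run of letters and does not show that a factor was bound.

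H2A and H2B genes often stand head to head and share the DNA between their start sites. Printed next are those stretches for the head-to-head pair at 1q21 (H2BC21/H2AC20, chr1:149886683-149886917) and the pair of highest H3K4me3 score in the chromosome 6 block of 16 (H2AC15/H2BC15, chr6:27838376-27838568). The pairs with no summit, H2AC1/H2BC1 (chr6:25726563-25726776) and H2AC25/H2BC26 (chr1:228457874-228458102), follow. All are read on the plus strand, with the gene named first transcribed leftwards. Capitals mark the same 3 motifs, and also the octamer that binds OCT1 (searched as its 7 bases TTTGCAT), on either strand, and touching or overlapping matches run together.
H2BC21/H2AC20: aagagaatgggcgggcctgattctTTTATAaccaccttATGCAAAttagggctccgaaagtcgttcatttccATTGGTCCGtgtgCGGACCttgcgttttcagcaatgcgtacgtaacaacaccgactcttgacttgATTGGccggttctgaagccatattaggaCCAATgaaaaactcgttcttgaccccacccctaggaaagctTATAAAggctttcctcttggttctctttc
H2AC15/H2BC15: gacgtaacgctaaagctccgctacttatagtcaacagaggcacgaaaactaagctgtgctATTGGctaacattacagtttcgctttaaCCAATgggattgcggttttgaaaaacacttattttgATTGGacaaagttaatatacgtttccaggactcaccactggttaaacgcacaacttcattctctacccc
H2AC1/H2BC1: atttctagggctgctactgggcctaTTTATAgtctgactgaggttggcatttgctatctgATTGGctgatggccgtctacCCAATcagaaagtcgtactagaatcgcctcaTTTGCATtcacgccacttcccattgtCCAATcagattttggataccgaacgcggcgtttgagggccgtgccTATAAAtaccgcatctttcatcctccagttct
H2AC25/H2BC26: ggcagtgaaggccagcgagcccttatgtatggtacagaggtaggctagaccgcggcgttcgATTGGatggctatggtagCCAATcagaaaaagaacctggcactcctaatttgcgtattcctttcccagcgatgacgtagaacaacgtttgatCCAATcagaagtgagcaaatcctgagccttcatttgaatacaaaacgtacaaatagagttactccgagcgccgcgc

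The octamer was in 14 of 18 H2B and 11 of 16 H2A promoters, whose windows overlap within a pair, and in 3.94% of all promoters. In the printed stretches it was present in the marked H2BC21/H2AC20 pair and in the unmarked H2AC1/H2BC1 pair, and these letters were in neither the marked H2AC15/H2BC15 stretch nor the unmarked H2AC25/H2BC26 stretch. Over all members the octamer was in 24 of 57 with a mark (42.1%) and 2 of 10 with none. These shares mix histone types: it was in 0 of 9 H1, 1 of 11 H3 and 0 of 13 H4 promoters, and the members with no mark include such genes. TATAAA began 20 to 40 bases upstream of the start in 35 of 67 members (52.2%) against 2.30% of all promoters. It was there in 33 of 57 members with at least 1 mark (57.9%) and in 2 of 10 with none. The member promoters held a median of 9 CpG dinucleotides and 43.6% G and C, against 11 and 58.0% in all promoters.

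A mark was assigned to a member if its list had a summit no more than 1000 bp from either gene end, and as carrying the promoter pair when H3K4me3 and H3K27ac lay within 1000 bp of the same end. By this rule 58 of 73 members had H3K4me3 (79.5%, interval 68.8 to 87.1), where 56.8% of all protein-coding genes did. H3K27ac was at 61 members (83.6%, 73.4 to 90.3) against 54.1% of all genes. The promoter pair was at 57 members (78.1%, 67.3 to 86.0) against 47.4% of all genes. H3K4me1 was at 5 members (6.85%, 2.96 to 15.1) against 12.4% of all genes, a share inside that interval. Finally, 11 members (15.1%, 8.63 to 25) had no summit of any mark, against 35.2%. Most histone genes in these cells thus had both promoter marks. Most had no H3K4me1 summit, but neither did most protein-coding genes, so this does not set the members apart.

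Histone genes are short, so both ends of a gene lie close to its start. Of the 73, 63 were at most 2000 bp long. The pair was at 48 of these 63 (76.2%), against 200 of 1186 other genes of that length (16.9%), and over all 1249 short genes the share was 19.9%. The 10 longer members included H2BC18, H4C15, H2BC21, H1-8, H2BC4, H2BC5, H3C4, H3C6 and H2BC12. The annotated interval of H3C4 ends at the start of H2AC7, so H3C4 takes up the summit of that gene (67.7), and its other end had an H3K4me3 score of 42.9.

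The best score at a member had a median of 48.7 for H3K4me3 (quartiles 30.6 and 59.3, range 6.28 to 120.1), against 52.4 over the other marked protein-coding genes. For H3K27ac the median was 60.6 (40.3 and 77.2, range 2.77 to 156.7), against 30.1. Of marked members, 20 of 58 scored above the median of other genes for H3K4me3 and 47 of 61 did so for H3K27ac. Compared with other marked genes, the set's median was thus somewhat lower for H3K4me3 and higher for H3K27ac. Over the 57 members with the pair, the best H3K4me3 and H3K27ac scores had a Pearson r of 0.84 and a Spearman rho of 0.75. Over 9505 other genes with both marks they were 0.41 and 0.43. These are descriptions over genes that share 2 libraries and often share summits, and the pooled value spans loci of different level. Within the 46 on chromosome 6, r was 0.67 and rho 0.66, and within the 8 at 1q21 they were 0.16 and -0.02.

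**Figure D1:**
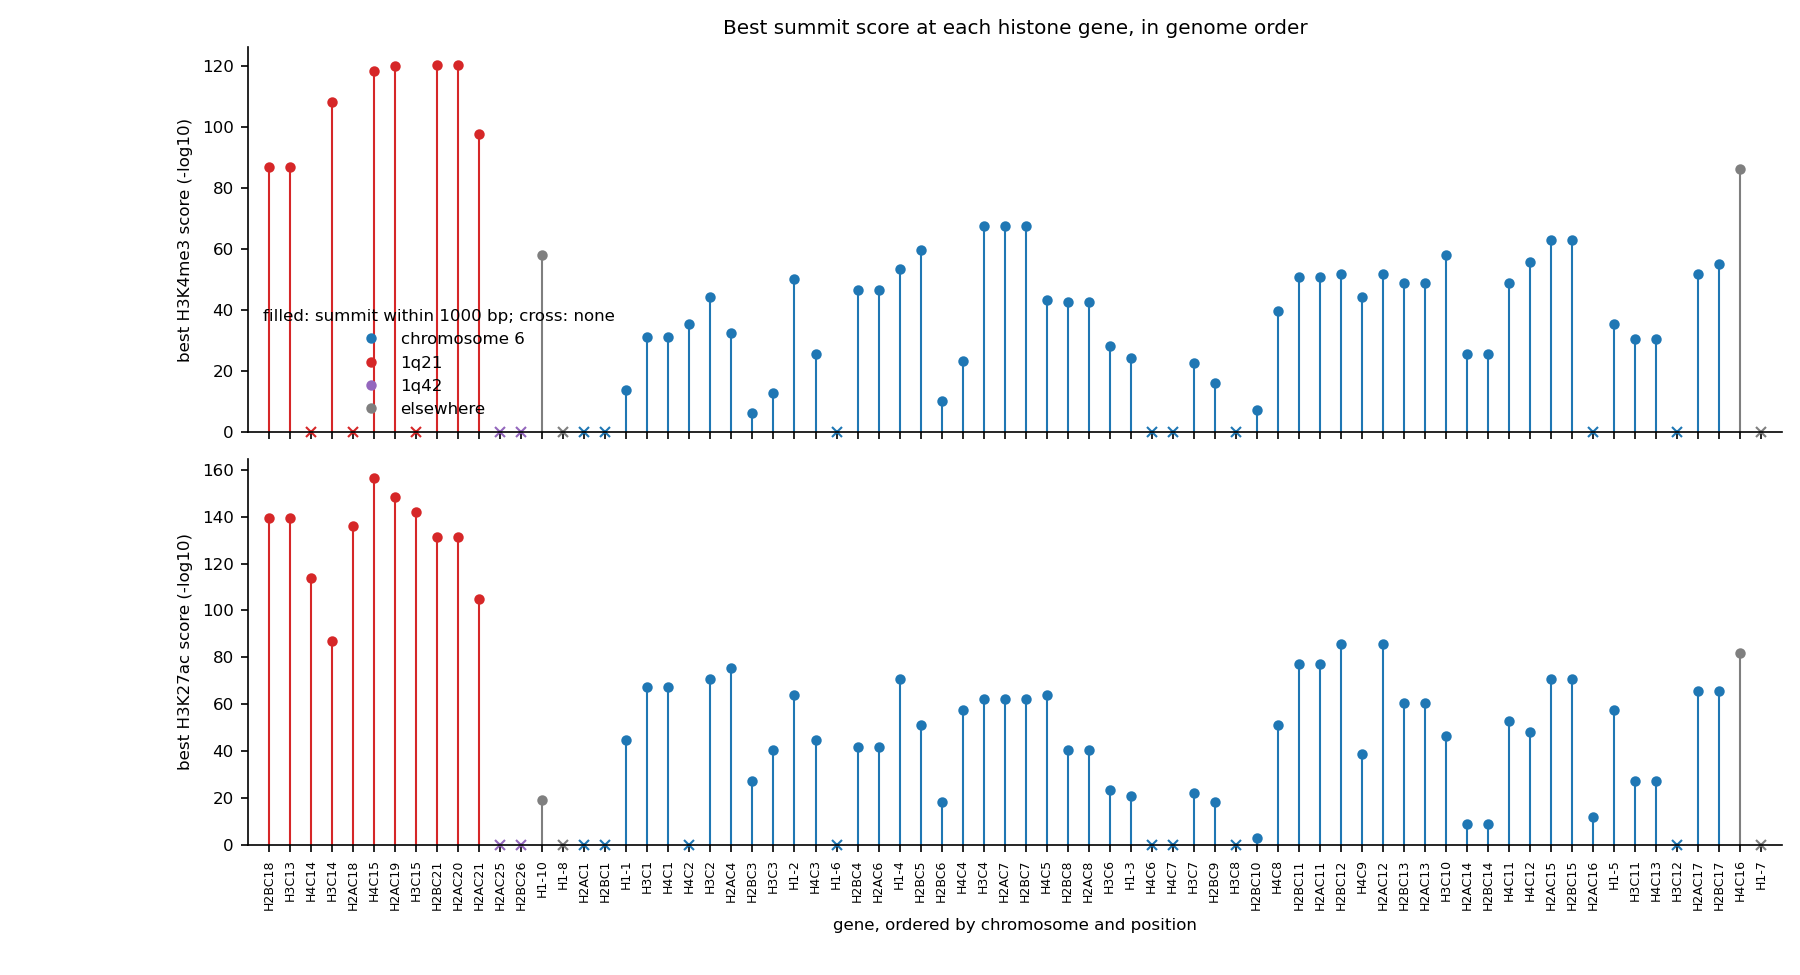
Best summit score at each of 72 of the 73 histone genes for H3K4me3 (upper panel) and H3K27ac (lower panel), on the −log10 scale of the deposited lists. Genes are in genome order, colours give the locus and crosses mark genes with no summit within 1000 bp. The 1q21 genes stand highest in both panels, and crosses fall singly or in small runs.

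The 11 genes at 1q21 carried the highest scores. All 11 had H3K27ac and 8 had H3K4me3. H2BC21 and H2AC20, the head-to-head pair, shared a summit of 120.1 for H3K4me3 and of 131.2 for H3K27ac. H2AC19 had 119.7 and 148.3, and H4C15 had 118.2 and 156.7. These 4 genes were the only members above the 99th percentile of other marked genes for H3K4me3 (110). H3C14, an H3.2 gene, had 108.0 for H3K4me3 and the lowest H3K27ac score of the locus, 86.9. H2AC21 had 97.8 and 104.7, and H2BC18 and H3C13 shared summits of 86.9 and 139.4. The other 3 genes had H3K27ac alone: H3C15 (142.0), H2AC18 (136.2) and H4C14 (114.0). Their nearest H3K4me3 summits were at 2123, 1392 and 1084 bp.

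Each of these 3 has a near-identical copy within the locus. The 250 bases before the start were identical in H4C14 and H4C15 over 250 of 250 positions, in H3C14 and H3C15 over 246 of 246 and in H2AC18 and H2AC19 over 249 of 249, the latter pairs after a shift of 4 and 1 bases. The labels and files do not state how the authors treated reads that map to several places. The split of signal between such copies is therefore uncertain, and whether it bears on the H3K4me3 calls that separate H4C15, H3C14 and H2AC19 from H4C14, H3C15 and H2AC18 was not tested. H3K27ac was called at both copies of each pair. Leaving out H3C4 and H2AC7, which have the same annotated start, the closest promoters on chromosome 6 were those of H4C11 and H4C12, with 98.0% identity and 5 mismatches.

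The first and largest chromosome 6 block held genes of all 5 histone types. H3K4me3 was at 28 of its 34 members, with a median of 33.9, and H3K27ac at 27, with a median of 44.8. Its highest H3K4me3 scores were at H2AC7 and H2BC7, a head-to-head pair (H3K4me3 67.7, H3K27ac 62.2), and at H2BC5 (59.7 and 51.0) and the linker genes H1-4 (53.4 and 70.5) and H1-2 (50.3 and 63.9), and its highest H3K27ac score was at H2AC4 (75.5). The lowest H3K4me3 scores of any marked member were also here: H2BC3 (6.28), H2BC10 (7.29), H2BC6 (10.1), H3C3 (12.8), H1-1 (13.99) and H2BC9 (16.2). High and low genes were neighbours in places. H2BC3 and H3C3 lay between H2AC4 (32.5) and H1-2 (50.3). H2BC10, with an H3K27ac score of 2.77, the lowest of any member, was followed along the chromosome by H4C8 (39.7 and 51.0).

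The smaller blocks on chromosome 6 were marked at nearly every gene. All 5 members of the block at chr6:27132316-27147562 had both marks, with medians of 50.9 for H3K4me3 and 77.2 for H3K27ac. H2BC12 and H2AC12 had 51.8 for H3K4me3 and 85.8 for H3K27ac, the highest H3K27ac score of the chromosome 6 members. In the last block 14 of 16 members had H3K4me3 (median 48.8) and 15 had H3K27ac (median 52.6). The pair H2AC15/H2BC15 led it (62.9 and 70.5), followed for H3K4me3 by H3C10 (58.1), H4C12 (55.8) and H2BC17 (54.9). The pair H2AC14/H2BC14 was the lowest of its marked genes, with 25.5 for H3K4me3 and 8.57 for H3K27ac, and H2AC16 had H3K27ac alone (11.9), with H3K4me3 at 1249 bp.

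Scores on chromosome 6 and at 1q21 did not overlap for either mark. The 47 marked genes on chromosome 6 ranged from 6.28 to 67.7 for H3K4me3 (median 43.4), and the 8 at 1q21 from 86.9 to 120.1 (median 113). For H3K27ac the 47 genes on chromosome 6 ranged from 2.77 to 85.8 (median 51.0), and the 11 at 1q21 from 86.9 to 156.7 (median 136). The 90th percentile of other marked genes (84.2 for H3K4me3, 72.0 for H3K27ac) was passed by 8 of 8 and 11 of 11 genes at 1q21, and by 0 of 47 and 5 of 47 on chromosome 6. H3K27ac was at 47 of 55 genes on chromosome 6 and at 11 of 11 at 1q21. The pair was at 46 of 55 on chromosome 6 (83.6%, interval 71.7 to 91.1) and at 8 of 11 at 1q21 (72.7%, 43.4 to 90.3). The 1q21 genes without the pair are the copies H3C15, H2AC18 and H4C14 described above. On all of chromosome 1 the pair was at 8 of 13 (61.5%, 35.5 to 82.3), as the 1q42 genes had no mark. These intervals overlap. The counts for chromosomes 6 and 1 moved with the window: 40 of 55 and 5 of 13 at 500 bp, and 50 of 55 and 11 of 13 at 2500 bp.

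Other genes differed between these regions in the same direction. Within 1 Mb of the 1q21 locus, 25 of 36 other genes had H3K4me3 with a median score of 88.2 (3.41 to 119.6), and 24 had H3K27ac with a median of 55.7. Within 1 Mb of the chromosome 6 blocks, 20 of 36 other genes had H3K4me3 with a median of 40.5 (18.9 to 64.4), and 14 had H3K27ac with a median of 25.2. Along chromosome 1 the median H3K4me3 score of other genes was 45.7 below 140 Mb and 64.4 from there on, and that of H3K27ac 26 and 40.3. The highest score of any other chromosome 6 gene was 84.2 for H3K4me3 and 88.7 for H3K27ac. What part regional signal had in the scores of the histone genes was not tested.

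**Figure D2:**
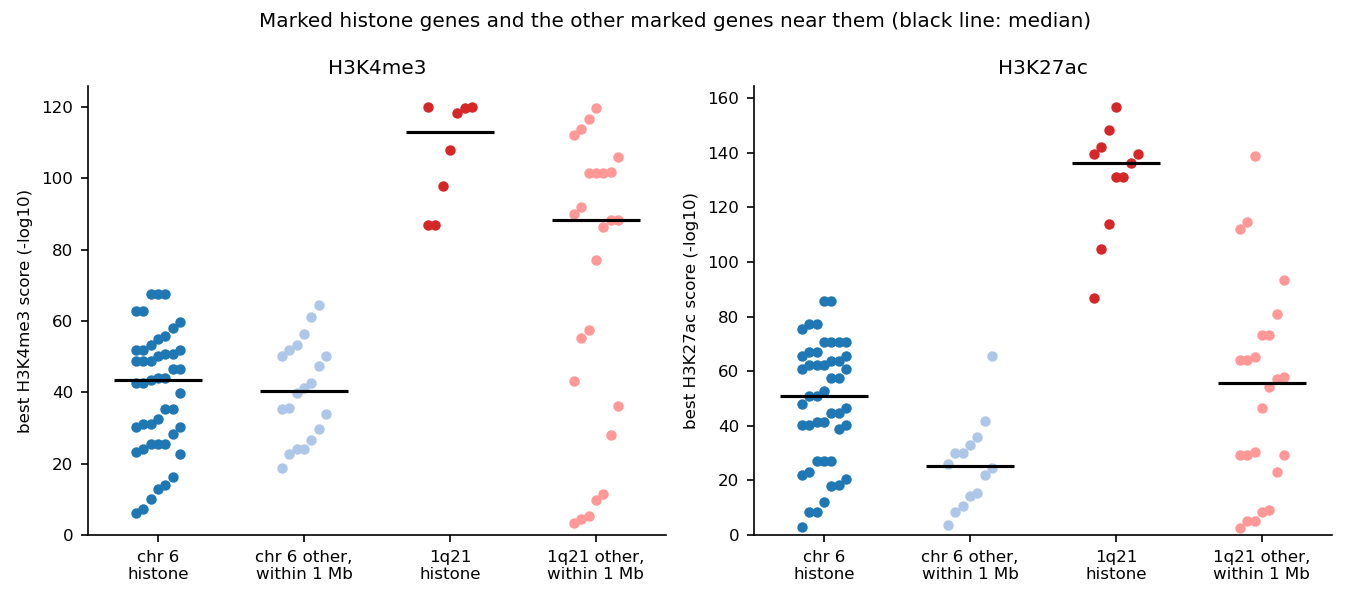
Best score (−log10) of each marked histone gene on chromosome 6 and at 1q21, beside the other marked protein-coding genes within 1 Mb of those loci, for H3K4me3 (left) and H3K27ac (right). Each point is a gene and black lines are medians. For H3K4me3 the medians are 43.4 and 40.5 around chromosome 6, and 113 and 88.2 around 1q21.

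Set against their own neighbours, the chromosome 6 histone genes were close for H3K4me3 (43.4 and 40.5) and higher for H3K27ac (51.0 and 25.2). Genes lying between histone genes were also read. In the first chromosome 6 block, the solute carrier genes SLC17A1, SLC17A2, SLC17A3 and SLC17A4 had no mark, while TRIM38, a ubiquitin ligase, had 27.9 for H3K4me3 and 27.3 for H3K27ac, and HFE, the hemochromatosis gene, had 32.5 and 43.3. Inside the 1q21 locus the Fc receptor gene FCGR1A had none and LOC124904411 had 31.0 and 7.34.

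By histone type, the pair was at 7 of 10 H1, 13 of 17 H2A, 16 of 18 H2B, 10 of 13 H3 and 11 of 15 H4 genes. Because locus and type are mixed, scores were compared within chromosome 6. H2A genes, marked by H3K4me3 in 10 of 12, had the highest medians (49.8 for H3K4me3 and 62.2 for H3K27ac). H2B genes, marked in 14 of 15, had a median of 47.7 and the widest range, 6.28 to 67.7. H1 genes (5 of 6, median 35.3), H4 genes (10 of 12, 37.5) and H3 genes (8 of 10, 30.7) stood lower for H3K4me3. H3K27ac medians were 57.4 for H1, 51.0 for H4, 46.3 for H2B and 43.3 for H3. The ranges of the types overlapped throughout, and H2A and H2B genes share summits within pairs, so their values are not separate measurements.

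**Figure D3:**
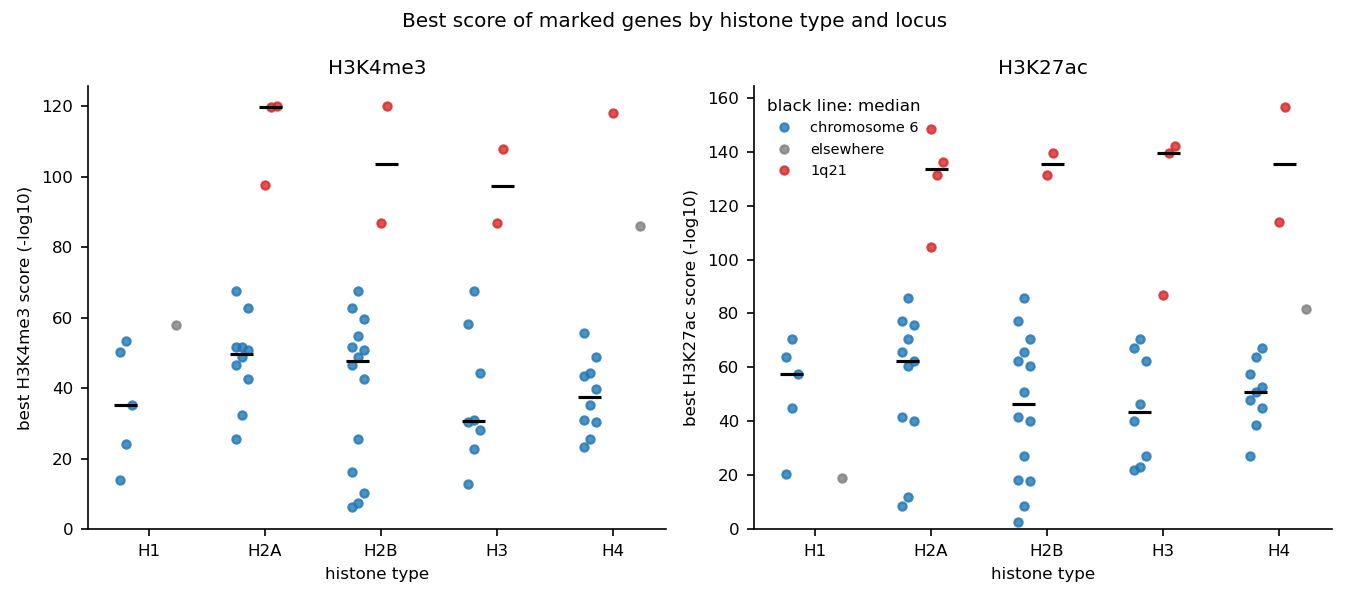
Best score (−log10) of each marked gene by histone type for H3K4me3 (left) and H3K27ac (right), with genes on chromosome 6, at 1q21 and elsewhere side by side. Black lines are medians of each locus within a type. In every type with 1q21 genes, those genes lie above all chromosome 6 genes.

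The members drew on a limited number of summits. For H3K4me3, 74 distinct summits served the 58 marked members: 50 lay near 1 member, 21 near 2 members and 3 near more, and 32 members shared at least 1 summit. For H3K27ac, 75 summits served 61 members and 29 members shared. Several summits at a gene were common: 37 of the 58 had 2 H3K4me3 summits within the window and 3 had more. A summit lay inside the gene itself in 47 of 58 members for H3K4me3 and in 41 of 61 for H3K27ac. None of these counts was made for other genes, so they do not show whether histone genes differ.

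Summit positions were also read relative to the 67 known start sites. Median offsets here are over all best summits, with those upstream counted as negative. For H3K4me3, the best summit within 1000 bp was downstream in 42 of 53 members (79.2%), and 35 (66.0%) had it 1 to 500 bp downstream. The median offset was 281 bp. Among other genes 78.2% were downstream and 49.0% were in that 500 bp range, with a median offset of 214 bp. For H3K27ac the best summit was downstream in 35 of 56 members (62.5%), with a median offset of 182 bp. In other genes these were 64.6% and 132 bp. No member had a summit within 100 bp of its start: 0 of 53 for H3K4me3 and 0 of 56 for H3K27ac. A limit of 3 counts gives shares of up to 5.66% and 5.36%, and the Wilson upper bounds are 6.76% and 6.42%. The closest lay at 138 and 125 bp. Among other genes 5.76% and 7.02% had a summit that close, the first inside the Wilson bound and the second slightly above it. Members that share summits are not separate observations of this distance.

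**Figure D4:**
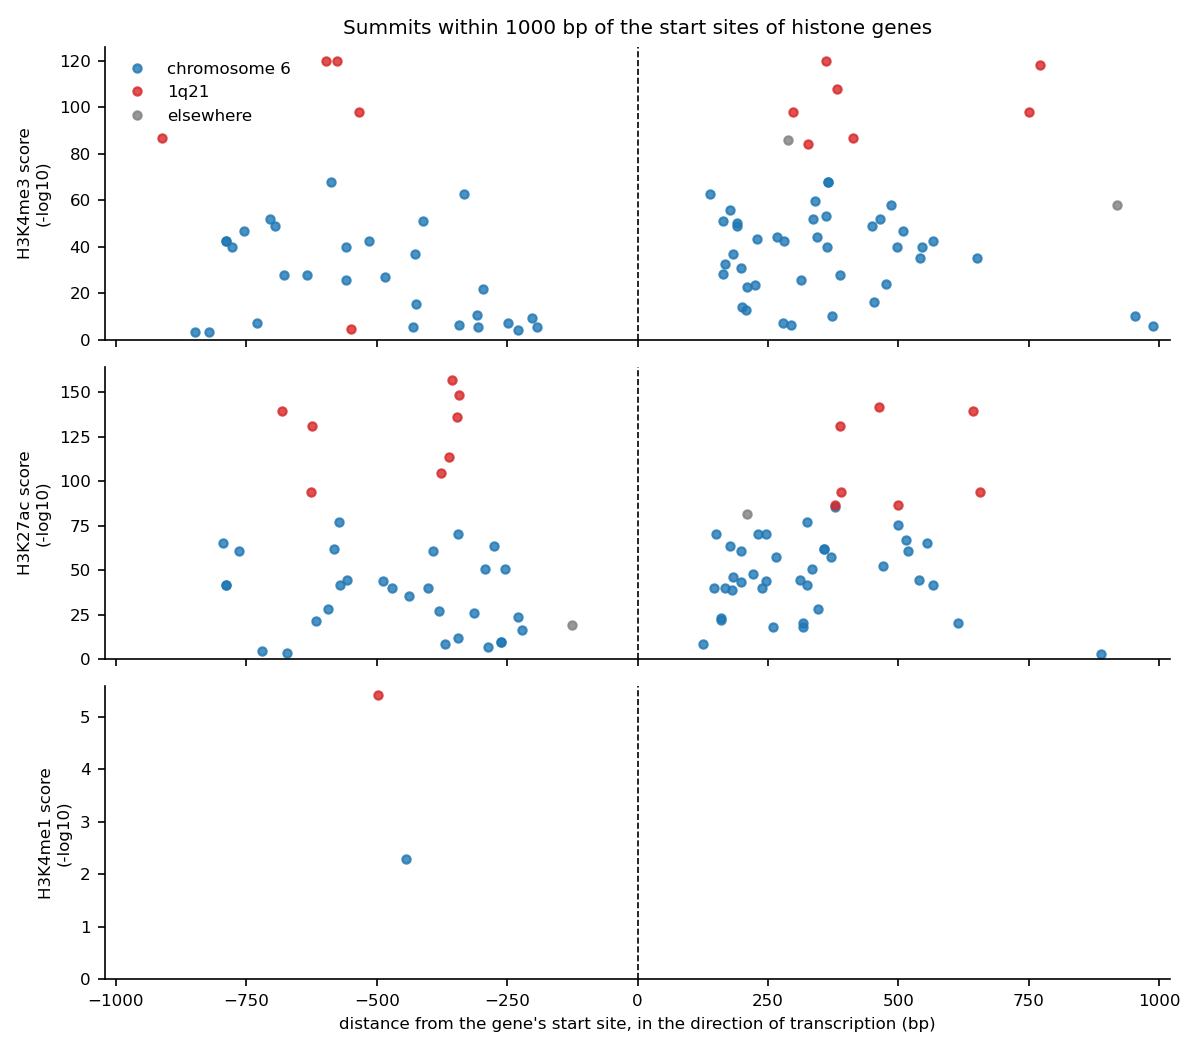
Position of every summit within 1000 bp of the start site of a histone gene (x axis, bp in the direction of transcription) against its score (y axis, −log10), for H3K4me3, H3K27ac and H3K4me1 from top to bottom. Colours give the locus. No point of any mark lies within 100 bp of the dashed line at the start site, and 2 H3K4me1 summits are present.

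Head-to-head pairs were read across the shared promoter. There were 11 such H2A and H2B pairs with starts at most 500 bp apart, at distances of 194 to 248 bp (median 236). Of these, 9 were marked by H3K4me3 and by H3K27ac. Of 710 other head-to-head gene pairs, 636 had H3K4me3 and 644 had H3K27ac. Their median distance was 158 bp (1 to 498), and distance was not matched in the comparisons below. None of the 9 marked histone pairs had a summit of either mark between the starts. This allows a share of up to 33.3% by 3 counts (29.9% by the Wilson bound). Among other head-to-head gene pairs, a summit lay between the starts in 0.943% of 636 for H3K4me3 and in 10.4% of 644 for H3K27ac, so a lack of summits there was usual for such pairs. H3K4me3 summits flanked the shared promoter on both sides in 6 of 9 histone pairs (66.7%, interval 35.4 to 87.9), against 26.6% of other pairs, and H3K27ac summits in 7 of 9 (77.8%, 45.3 to 93.7), against 49.7%. At H2BC21/H2AC20, the H2B side had 120.1 and the H2A side 97.8 for H3K4me3, and 131.2 and 93.8 for H3K27ac. At H2AC15/H2BC15 the H2B side was also the higher, with 62.9 against 39.7 and 70.5 against 60.6. Of the 6 pairs with H3K4me3 on both sides, the H2B side was higher in 3 and the H2A side in 3, namely at H2AC6 (46.6 against 27.9), H2AC7 (67.7 against 42.7) and H2AC13 (48.7 against 36.8).

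**Figure D5:**
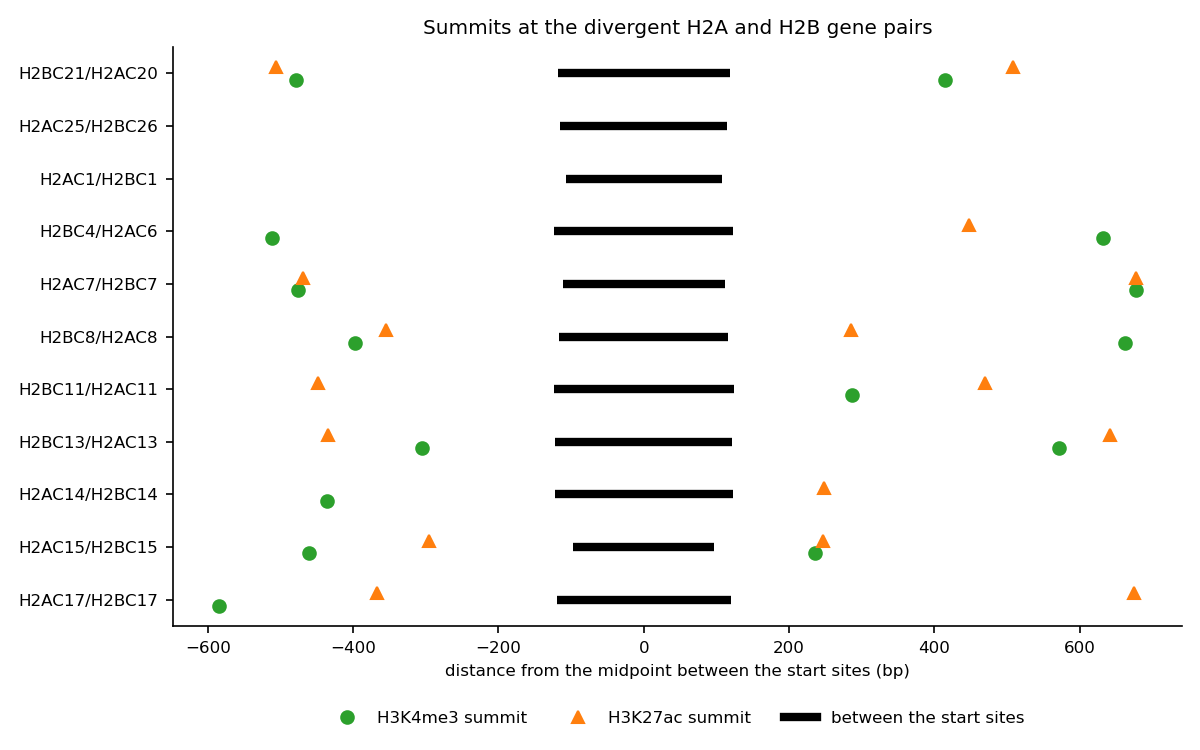
Summits around the 11 head-to-head H2A and H2B pairs, in bp from the midpoint between the start sites, with the gene transcribed leftwards named first. Green circles are H3K4me3 summits, orange triangles H3K27ac summits, and black bars span the 194 to 248 bp between the starts. Every summit lies outside the bars, and H2AC25/H2BC26 and H2AC1/H2BC1 have none.

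The 11 members with no mark were of 2 kinds. In 7 of them, the gene is known from germ cells or lies apart from the large clusters: H2AC1 and H2BC1 at the far end of the first chromosome 6 block, with the nearest H3K4me3 summit over 235 kb away (236558 and 235775 bp), H1-6 inside that block (3031 bp), H1-7 (20835 bp), H1-8 (41088 bp), and H2AC25 and H2BC26 at 1q42 (29629 and 28944 bp). The other 4 lay within clusters that were otherwise mostly marked. They were the H4 genes H4C6 (nearest H3K4me3 at 5213 bp) and H4C7 (3430 bp) and the H3 genes H3C8 (1796 bp) and H3C12 (1894 bp). H3C8 lies next to the weakly marked H2BC10, and H3C12 next to H2AC17 (51.8). Missing summits mean that none passed the authors' threshold, and the lists do not show whether these genes are transcribed.

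H3K4me1 was at few members, and mostly at 1q21. Its summits lay at H3C14 (6.16), H3C13 (5.42), H3C15 (5.26) and H2BC21 (2 summits, best 5.07). These are 4 of the 11 members at 1q21 (36.4%, interval 15.2 to 64.6). H4C2 (2.28) was the only one of 55 on chromosome 6. Other genes were split the same way, so this is not particular to histone genes. H3K4me1 was at 8 of 36 within 1 Mb of 1q21 (22.2%) and at 0 of 36 within 1 Mb of the chromosome 6 blocks, against 12.4% of all genes. The median of 5.26 over the 5 members stood beside 4.75 over the other protein-coding genes with the mark. The 1q21 members ranged from percentile 54.2 to 67.0 of those genes, and H4C2 was low, at percentile 4.76. H4C2 was also the only member with H3K4me3 (35.3) and no H3K27ac within the window, and its nearest H3K27ac summit was at 1250 bp. The H3K4me1 count rested on the window: it was 3 at 500 bp and 15 at 2500 bp.

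Outside the clusters, H4C16 on chromosome 12 had 86.1 for H3K4me3 and 81.6 for H3K27ac, above every H4 gene on chromosome 6. The replication-independent linker gene H1-10 (58.1 and 19.1) had both marks, with an H3K27ac score below the 60.6 median of members. Histone variant genes outside the rule were read from a list of 21 symbols, of which 20 were distinct from the set, the last, H2BU1, being H2BC26 under another name. The pair was at 8 of the 20 (40.0%, interval 21.9 to 61.3), and the 47.4% of all protein-coding genes lies inside that interval. The highest for H3K4me3 were H3-3B (107), which codes for H3.3, H2AZ2 (82.4), an H2A.Z gene, and H2AJ (77.2). Of the 11 without H3K4me3, H3-4, H3Y1, H2BK1, MACROH2A2, H3-5, H2BN1, H2AP, H2AL3, H2BW1, H2BW2 and MACROH2A1, the last had H3K27ac (27.3).

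Genes that transcribe or process histone mRNA were marked almost throughout. Of 24 on the list, 23 had the pair and all 24 had H3K27ac, with a median H3K4me3 score of 64.4. NPAT, the coactivator of histone genes, had 68.6 for H3K4me3 and 44.7 for H3K27ac, and SLBP, which binds the stem-loop, had 61.3 and 61.3. The highest were SRRT (111), a partner of the cap-binding complex, TUT7 (95.5), a uridylyltransferase, and NCBP1 (88.1), a cap-binding subunit. CCNE2, a cyclin E gene, lacked H3K4me3 within the window, with the nearest at 1633 bp, and had H3K27ac (4.96). All 15 histone chaperone and import genes had the pair (median H3K4me3 64.4), led by the nucleosome assembly genes NAP1L4 (106) and NAP1L1 (103) and by HAT1 (80.8), which acetylates new H4. Read against the 47.4% of all genes with the pair, both lists stood higher, and no test was made of the difference.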

How the data were processed

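ChIP-seq of 3 histone marks in MHCC97L cells, 1 library each, was deposited as peak summit lists. Alignment to hg38 and the tools MACS2, Bowtie, deepTools and Picard are named, per the submitters' processing notes. Their versions, settings and handling of multi-mapping reads are not given in the sources used. Scores in the deposited lists are on a −log10 scale, of a p-value or a q-value, which of these being unstated. Summits on chromosome Y and on contigs were left out (185 for H3K4me3, 273 for H3K27ac, 61 for H3K4me1). The input library was not analysed here. Read depth is unknown.

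Summits were assigned to RefSeq gene ends (GRCh38.p14, the coordinates of hg38) within 1000 bp, with Python 3.11.15, pandas 2.3.3, numpy 2.4.6 and scipy 1.17.1. The assignment was tested on simulated data. Members at most 300000 bp apart formed a locus. Start sites and upstream bases came from the RefSeq promoter table. The values of 1 member are not reported here, though counts and medians include it and the plots by gene and by type leave it out. Of the histone-related lists, the genes named were those without H3K4me3, and the 3 of highest score; cell type markers, NPAT, SLBP and the genes lying inside a locus were named after their values were seen. The members and lists were chosen with earlier results of these data known. Alternatives were other windows, a score minimum, start sites only, merged genes, summits counted once and sets without some members.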

Additional observations from a re-analysis of the deposited data

How the results depend on the processing

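With 1 library per mark, no replicate could be left out and no test was made. No paired analysis was possible because each mark had 1 library. Of 52 alternative values, 37 were labelled close to the reported value and 15 as moved. These labels did not follow shares. The pair was at 46 of 73 members (63.0%) at 500 bp and at 64 (87.7%) at 2500 bp, both labelled close. H3K4me3 was at 51 of 73 (69.9%) at 500 bp, also labelled close. Its share of merged blocks, 81.4% against 79.5% of members, was labelled as moved. Merging members whose windows overlap into 43 blocks gave 35 blocks with H3K4me3, 35 with H3K27ac, 34 with the pair and 7 with no mark, and 28 of 33 blocks on chromosome 6 and 3 of 5 on chromosome 1 with the pair. The number with H3K4me1 was 3 at 500 bp, 15 at 2500 bp, 0 with a score of at least 10 and 2 of 67 around start sites. Members with no mark numbered 7 at 2500 bp and 6 of 66 without the germ-cell and replication-independent genes. The chromosome 1 count with the pair fell to 5 at 500 bp. Counting each summit once gave medians of 33.7 over 74 summits for H3K4me3 and 44.2 over 75 for H3K27ac. The sets without 1q21, and chromosome 6 without its germ-cell genes, were chosen after seeing the data: without 1q21 the pair was at 49 of 62 members and the medians were 44.2 and 51.0, and chromosome 6 without those genes had it at 46 of 52. Unknown depth, multi-mapping at the copied genes and cells of unknown cell cycle stage limit what a missing summit shows.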

Other observations

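Histone pseudogenes, most of them in or near the same loci, were read after the values of the genes had been seen. Of 15, 6 had H3K4me3, 6 had H3K27ac, 4 had both at the same end and 7 had no mark of any kind. Over all protein-coding genes the shares were 56.8%, 54.1%, 47.4% and 35.2%. The shares over all pseudogenes were not computed, so these counts do not show whether histone pseudogenes differ from others. Of the 8 with a mark, 6 took it from a summit that also lay within 1000 bp of a histone gene, such as H2BC20P at 1q21 (H3K4me3 119.7, H3K27ac 148.3), which shared the summits of H2AC19. The exceptions were H3C9P, beyond the end of the first chromosome 6 block (42.7 and 23.2), and H3C5P (H3K4me3 3.47). The transcribed pseudogenes H2AC2P, near the unmarked H2AC1 and H2BC1, and H1-9P on chromosome 17 had no summit.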
